A study of Homo sapiens with 24 samples.

Results

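siRNA against HER2 was compared with control siRNA in BT-474 cells that had been treated with estrogen for 24 h. BT-474 is an established human breast cancer cell line in which the ERBB2 gene, which encodes the receptor tyrosine kinase HER2, is amplified and an estrogen receptor is present. The comparison was chosen by sample title and holds 6 of the 24 arrays of the series. On 3 arrays the cells had received HER2 siRNA and 10 nM estrogen for 24 h, and on 3 arrays control siRNA and 10 nM estrogen for 24 h. For comparison, 3 arrays with HER2 siRNA and 3 with control siRNA came from cells given vehicle (0.001% ethanol) for 24 h, and as many of each from cells given 10 nM estrogen for 4 h. Every group carried an siRNA, and the siRNA sequences and the time between transfection and treatment are not given in the sources used here. RNA was hybridised to an Affymetrix array, and the values are log2 RMA levels, in which 1 unit is a factor of 2. A gene was represented by its brightest probe set, and 14335 genes with a log2 level of at least 5 on at least 3 arrays were tested. Differences are log2 levels with HER2 siRNA minus those with control siRNA, given ± standard error with an adjusted p from limma. Whether the 3 replicates of a group came from separate cultures is not given in the labels. The p-values therefore cover the array-to-array spread alone, which may be technical, and the number of arrays limits the precision. In RNA from whole cultures, fewer cells in a state and less RNA per cell cannot be told apart.

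HER2 has no known ligand of its own and signals by pairing with other HER family receptors, above all with HER3. Active HER2 dimers feed the PI3K and AKT pathway, which keeps FOXO transcription factors out of the nucleus, and the RAS and MAPK pathway, which induces its own feedback inhibitors. Both pathways promote cyclin-dependent kinase activity in G1, which frees E2F factors from the pocket proteins so that genes of DNA replication are transcribed. Genes of mitosis are transcribed later through B-MYB and FOXM1, and their promoters often hold CHR and CCAAT elements. Estrogen acts in the same cells through the estrogen receptor, a hormone-dependent transcription factor. The title of the series links HER2 to proliferation and to genes regulated by E2F1, and the comparison asks which transcripts depended on HER2 siRNA when estrogen was present.

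Promoter sequences of genes that moved together are shown first, because several of the gene groups below are known for particular promoter elements. The sequences are from RefSeq on GRCh38.p14, run from 250 bases before to 50 bases after the annotated gene start and are printed 5′ to 3′ on the gene's strand, with the matched letters in capitals. A promoter was at hand for 11448 of the 14335 genes tested. The E2F letters searched were TTTNGCGC, the CHR letters TTTGAA, the CCAAT box letters CCAAT, the FOXO letters TGTTTAC and the ETS letters CCGGAAGT, each on both strands. No CHR match overlapped a CCAAT match in the promoters printed.
DTL, 1 E2F match beginning 8 bases before the gene start (chr1:212035498-212035797, plus strand): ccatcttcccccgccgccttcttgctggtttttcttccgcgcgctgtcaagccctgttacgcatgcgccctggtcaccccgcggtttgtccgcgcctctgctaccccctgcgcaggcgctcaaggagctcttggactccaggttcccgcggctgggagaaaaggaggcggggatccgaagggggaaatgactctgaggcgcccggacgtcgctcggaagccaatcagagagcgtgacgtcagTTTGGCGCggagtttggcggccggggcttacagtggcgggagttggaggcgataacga
MCM6, 4 E2F matches, in 2 pairs that overlap on opposite strands (chr2:135876394-135876693, minus strand): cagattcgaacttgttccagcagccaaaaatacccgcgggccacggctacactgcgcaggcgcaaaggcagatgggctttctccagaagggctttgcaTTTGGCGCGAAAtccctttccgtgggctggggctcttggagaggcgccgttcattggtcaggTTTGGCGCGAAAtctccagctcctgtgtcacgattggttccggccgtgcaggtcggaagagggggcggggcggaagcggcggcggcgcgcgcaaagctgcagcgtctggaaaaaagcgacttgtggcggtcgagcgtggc
SPC25, 2 CHR and 2 CCAAT box matches (chr2:168890381-168890680, minus strand): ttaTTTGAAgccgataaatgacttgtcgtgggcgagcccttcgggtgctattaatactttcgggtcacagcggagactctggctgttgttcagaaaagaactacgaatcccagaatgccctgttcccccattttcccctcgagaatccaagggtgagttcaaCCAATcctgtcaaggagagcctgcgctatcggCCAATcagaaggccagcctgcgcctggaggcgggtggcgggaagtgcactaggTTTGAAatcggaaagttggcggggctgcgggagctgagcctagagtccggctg
TOP2A, 2 CHR and 4 CCAAT box matches (chr17:40417847-40418146, minus strand): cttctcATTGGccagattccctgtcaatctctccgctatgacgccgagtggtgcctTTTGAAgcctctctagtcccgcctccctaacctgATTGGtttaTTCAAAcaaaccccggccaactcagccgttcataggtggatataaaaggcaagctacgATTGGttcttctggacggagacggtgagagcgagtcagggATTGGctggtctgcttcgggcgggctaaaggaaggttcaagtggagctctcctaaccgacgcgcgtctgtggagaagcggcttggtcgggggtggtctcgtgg
DEPP1, 1 FOXO match beginning 180 bases before the gene start (chr10:44978760-44979059, minus strand): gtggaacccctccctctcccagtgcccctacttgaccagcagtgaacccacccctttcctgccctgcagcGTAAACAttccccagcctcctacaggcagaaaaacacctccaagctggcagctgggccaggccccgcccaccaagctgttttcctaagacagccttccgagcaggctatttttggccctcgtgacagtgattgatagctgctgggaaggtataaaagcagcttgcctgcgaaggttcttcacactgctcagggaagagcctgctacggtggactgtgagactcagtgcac
Among the 322 promoters of genes that fell by at least 2-fold, 31 (9.63%) held the E2F letters, against 319 (2.79%) of the 11448 promoters and 2 (0.687%) of the 291 promoters of genes that rose by at least 2-fold. In the replicative helicase 5 of 8 promoters (62.5%) held them, in MCM2, MCM3, MCM6, MCM7 and GINS1. The shares were 33.3% of 15 origin gene promoters, 6 of 20 polymerase and clamp gene promoters and 3 of 10 promoters of E2F, DP and pocket protein genes. The CHR letters were in 30.1% of the promoters of genes that fell by at least 2-fold and in 9.93% of all promoters. Of 36 promoters of mitotic genes 25 (69.4%) held the CHR letters and 26 (72.2%) held CCAAT, against 36.2% of all promoters for CCAAT. Both elements stood together in 18 of the 36, and in 475 (4.15%) of all promoters. The FOXO letters were in 21 (7.22%) of the promoters of genes that rose by at least 2-fold, in 6 (1.86%) of those that fell by as much and in 275 (2.40%) of all. Of 23 promoters in the FOXO list 4 held them, in FOXO4, TXNIP, DEPP1 and BCL2L11. The ETS letters were in 6.83% of the promoters of genes that fell by at least 2-fold, in 7.82% of all promoters and in none of 10 promoters of MAPK feedback and ETS genes. A match is a description of letters in this window and not of a bound site, and these shares were not tested.

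The targeted gene was lower on each HER2 siRNA array of the comparison. The log2 level of ERBB2 was 12.22, 12.44 and 12.33 with HER2 siRNA, against 13.41, 13.47 and 13.39 with control siRNA. The groups did not overlap, and the difference of -1.09 ± 0.11 (adjusted p = 7.50e-08) corresponds to 46.8% of the level with control siRNA, with a 95% interval from 39.9 to 55.0%. The probe sets of the gene gave 42.3%, 46.8% and 51.5%. In the same terms 39.4% remained under vehicle after 24 h, and 39.2% under estrogen after 4 h, and neither difference between these effects passed the test (adjusted p = 0.921 and 0.771). By size, ERBB2 ranked 323rd among the falls.

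Arrays of 1 group correlated between 0.99 and 0.997 over the series, and no 2 arrays held identical values. The log2 difference between the 3′ and 5′ control probe sets of GAPDH, a measure of RNA integrity and labelling, moved with the siRNA. It was 0.451 ± 0.019 with HER2 siRNA and 0.267 ± 0.011 with control siRNA (SD, n = 3 each, 2-sided exact permutation p = 0.1, the smallest p that 3 against 3 arrays allow). For ACTB it was 1.42 ± 0.055 and 1.17 ± 0.132 in the same order. Its part in the results was not tested. With the GAPDH measure of each array as a covariate 4667 genes passed rather than 6019, and list counts that this moved by over 1.5 times are given below. Every HER2 siRNA array of the comparison lay above every control siRNA array in the GAPDH measure. A call kept or lost with this covariate therefore cannot tell RNA integrity from the siRNA. Luminal markers fixed for the cell line were high in both groups. KRT18 averaged 13.41 with HER2 siRNA and 13.46 with control siRNA, and 10 of the 13 luminal markers averaged at least 10 over the 6 arrays. The mean level of the luminal list lay between 11.05 and 11.13 on the HER2 siRNA arrays and between 10.97 and 11.10 on the control siRNA arrays. TFAP2B was the 1 luminal marker under 5. Of 10 measured basal and mesenchymal markers 6 averaged under 5, while TWIST1 was the highest at 10.154. VIM averaged 10.055 with HER2 siRNA and 9.681 with control siRNA, a difference that did not pass. The mean level of that list lay between 5.70 and 5.80 with HER2 siRNA and between 5.46 and 5.55 with control siRNA. TWIST1, the only tested member of it that passed, averaged 11.112 with HER2 siRNA and 9.195 with control siRNA. KRT14, FN1 and SNAI1 averaged lower with HER2 siRNA. Of 12 measured markers of fibroblasts, leukocytes and endothelial cells 6 averaged under 5, among them the leukocyte antigen PTPRC and the endothelial cadherin CDH5. The fibroblast marker COL1A1 was the highest at 9.361, and the endothelial VWF averaged 7.179 with HER2 siRNA and 7.617 with control siRNA. The mean level of this list per array lay between 5.16 and 5.25 with HER2 siRNA and between 5.13 and 5.18 with control siRNA.

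HER2 siRNA changed the levels of 6019 of 14335 genes (42.0% of those tested) in estrogen-treated cells at 24 h. Of these 3080 were higher (21.5%) and 2939 lower (20.5%). Among the higher genes 18 reached the filter only through the HER2 siRNA arrays of the comparison. Among the lower genes 6 did so only through its control siRNA arrays, so the filter favoured the direction of these genes. By at least 2-fold 366 rose (2.55%) and 391 fell (2.73%), and by at least 4-fold 44 rose and 42 fell. The median difference over all genes was 0.00, and the middle 50% of genes lay between -0.20 and 0.22. With so many calls, a list in which about 42.0% of members pass is near the background. The counts below are to be read against that share. The genes named below were mostly chosen by size or adjusted p, so arrays of theirs that do not overlap add no support. How many of all genes did not overlap is not given here. A gene's value is that of its brightest probe set. With all probe sets of a gene averaged, dim ones included, the difference lay nearer 0 by over 1.5 times for 64 of the 146 named genes with several probe sets, and none of the 146 changed sign. For those of the 64 that are printed below, the averaged values are given with their group. Genes whose averaged level did not reach the filter, MECOM and CLSPN among them, have no averaged value.

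KCNJ13, an inwardly rectifying potassium channel, had log2 levels of 9.19, 9.42 and 9.43 with HER2 siRNA, against 5.48, 5.90 and 5.42 with control siRNA, the largest rise at 13.4-fold (3.75 ± 0.24, adjusted p = 2.23e-10). DYNLRB2, a dynein light chain of motile and primary cilia, stood at 8.19, 8.54 and 8.34 with HER2 siRNA, against 4.77, 5.11 and 5.45 with control siRNA (3.25 ± 0.15, adjusted p = 4.16e-12). DEPP1, a FOXO-induced regulator of autophagy, reached 8.11, 8.82 and 8.78 with HER2 siRNA, against 5.45, 5.13 and 5.39 with control siRNA (3.24 ± 0.29, adjusted p = 9.38e-09). In each of these 3 genes the lowest HER2 siRNA array was over 2 log2 units above the highest control array. That the groups do not overlap was a condition for naming the largest rises and falls. PGM5, related to phosphoglucomutases, rose by 3.31 ± 0.36, N4BP2L1 by 2.99 ± 0.34, the secreted synaptic protein CBLN2 by 2.96 ± 0.23 and the iron and copper reductase CYBRD1 by 2.91 ± 0.25. FBXO32 is the ubiquitin ligase subunit atrogin-1 known from muscle atrophy. It was at 9.65, 10.08 and 10.28 with HER2 siRNA, against 6.73, 7.43 and 7.49 with control siRNA (2.78 ± 0.26). Of its 7 probe sets, the 5 tested all rose. Genes of signalling at the cell surface were among these rises too, with the prostaglandin E2 receptor PTGER4 (2.78 ± 0.29), the Notch ligand JAG1 (2.71 ± 0.23), the heparan sulfate proteoglycan GPC5 (2.71 ± 0.37) and caveolin CAV2 (2.67 ± 0.21). The transcription factor MECOM rose by 2.58 ± 0.23. With probe sets averaged the differences were 1.87 for DEPP1, 1.21 for PGM5, 0.62 for N4BP2L1, 1.28 for FBXO32, 1.39 for PTGER4, 1.40 for JAG1 and 1.63 for CAV2. The second probe sets of PGM5 (0.35 ± 0.16, adjusted p = 0.0902) and PTGER4 (0.01 ± 0.13, adjusted p = 0.982) did not pass.

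E2F7, a repressor of the E2F family that E2F activity itself induces, had log2 levels of 5.19, 5.74 and 5.65 with HER2 siRNA, against 7.94, 8.36 and 8.32 with control siRNA (-2.68 ± 0.24, adjusted p = 1.22e-08). That was the largest fall, to 15.6% of the level with control siRNA, while the second probe set of the gene did not pass (-0.19 ± 0.12, adjusted p = 0.221). SHCBP1, a protein of cytokinesis that binds the adaptor SHC, stood at 5.93, 6.19 and 6.11 with HER2 siRNA, against 8.46, 8.91 and 8.89 with control siRNA (-2.67 ± 0.20). ESCO2, which acetylates cohesin during replication, was at 5.25, 5.11 and 4.45 with HER2 siRNA, against 7.29, 7.61 and 7.51 with control siRNA (-2.53 ± 0.23). The HER2 siRNA arrays of each of these genes lay lower. DLGAP5, a spindle protein, differed by -2.46 ± 0.22, the zinc finger protein ZNF367 by -2.40 ± 0.15, the kinesins KIF14 and KIF23 by -2.38 ± 0.22 and -2.26 ± 0.20, and the mitotic kinase PBK by -2.32 ± 0.15. BUB1, a kinase of the spindle checkpoint, differed by -2.30 ± 0.19, the cytoskeletal linker GAS2L3 by -2.27 ± 0.22 and the cytokinesis protein ANLN by -2.25 ± 0.16. With probe sets averaged the differences were -1.44 for E2F7, -1.24 for ESCO2 and -0.80 for BUB1.

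**Figure D1:**
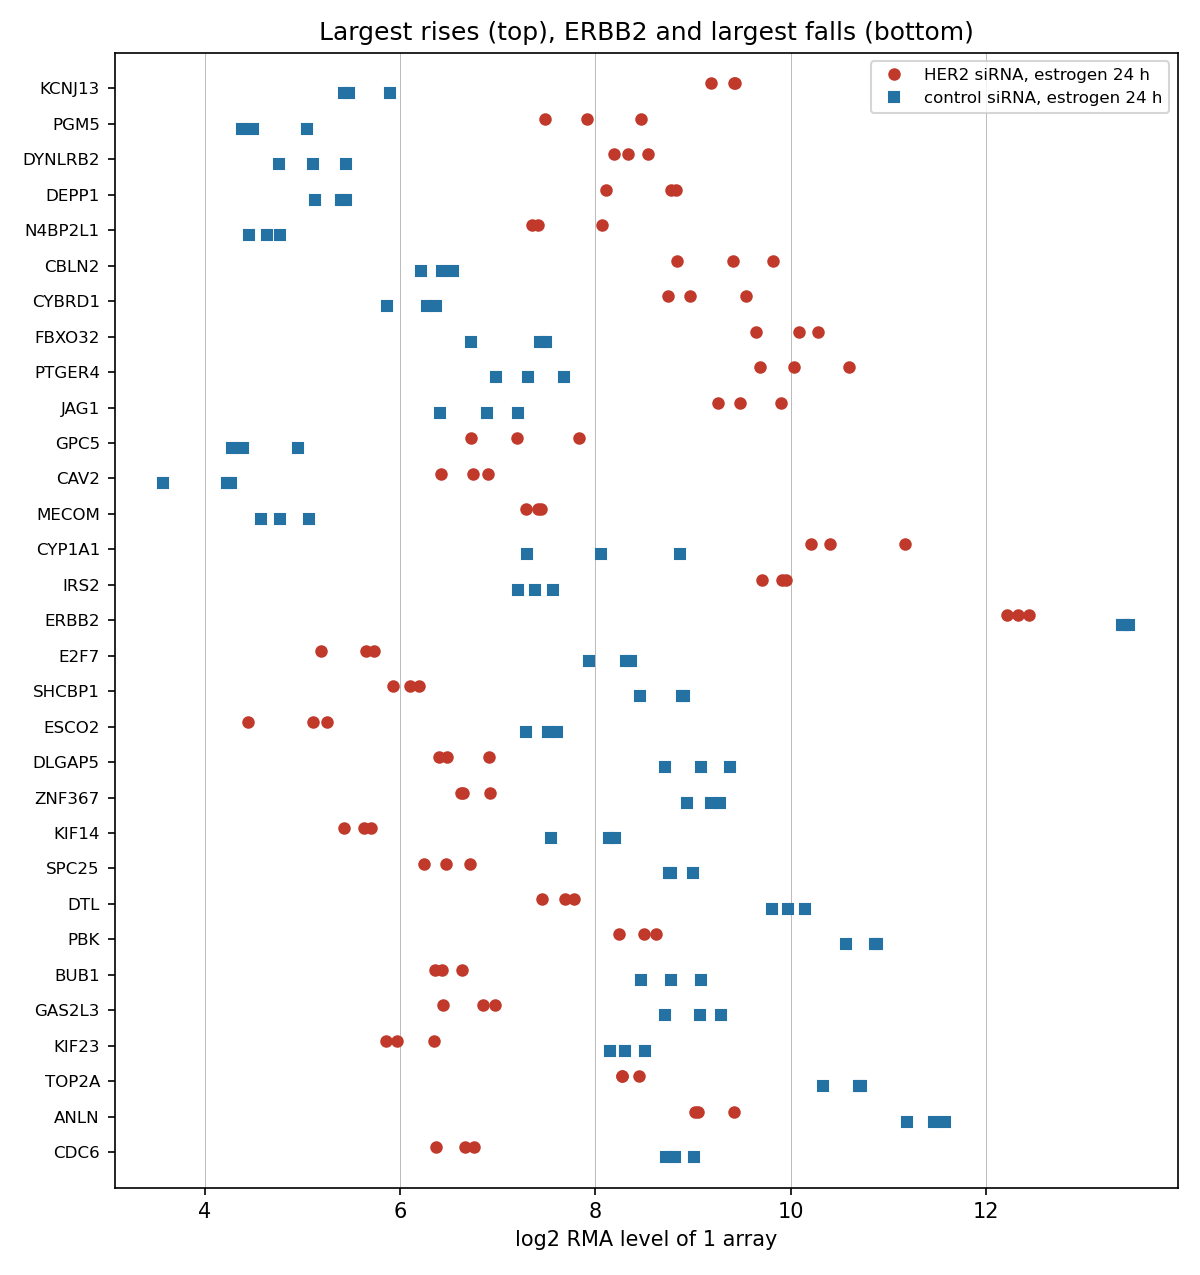
Log2 RMA level on each array (horizontal axis) of the 15 genes with the largest rises (top), ERBB2 and the 15 genes with the largest falls (bottom), with HER2 siRNA as circles above control siRNA as squares, all with estrogen for 24 h. The genes were chosen for arrays that do not overlap. KCNJ13 lies between 9.19 and 9.43 with HER2 siRNA and between 5.42 and 5.90 with control siRNA.

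Of the HER family receptors other than HER2, ERBB3 and ERBB4 rose. ERBB3, the receptor that pairs with HER2 to recruit PI3K, had log2 levels of 11.88, 12.13 and 12.02 with HER2 siRNA, against 10.98, 10.88 and 10.83 with control siRNA (1.11 ± 0.09, adjusted p = 2.43e-09). ERBB4, a receptor for neuregulins, was at 7.0, 6.69 and 6.80 with HER2 siRNA, against 5.90, 5.86 and 5.68 with control siRNA (1.02 ± 0.15, adjusted p = 1.27e-05). Both genes stood above control on every array, and with probe sets averaged the differences were 0.44 and 0.51. EGFR differed by 0.34 ± 0.17 and did not pass (adjusted p = 0.134). Among 7 tested ligands of the family none rose, and TGFA (-0.60 ± 0.15) and EGF (-0.57 ± 0.19) fell. With the GAPDH measure as a covariate both calls ended (adjusted p = 0.109 and 0.426). That of TGFA also ended with probe sets averaged (-0.18, adjusted p = 0.0801), and that of EGF without control siRNA replicate 3 (0.0944), HER2 siRNA replicate 2 (0.0668) or HER2 siRNA replicate 3 (0.068).

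Of 21 tested genes of PI3K, AKT, mTOR and the insulin receptor 11 rose and 2 fell, with a median difference of 0.62 against 0.00 over all genes. The other 8, among them AKT1, AKT2 and MTOR, did not pass. The median was 0.28 with probe sets averaged and 0.39 with the GAPDH covariate, where 11 rose and 3 fell in each, and it was 0.15 with estrogen at 4 h and 0.01 with vehicle at 24 h. The adaptor IRS2 was at 9.70, 9.92 and 9.95 with HER2 siRNA, against 7.20, 7.56 and 7.38 with control siRNA (2.47 ± 0.15, adjusted p = 7.94e-11), and the insulin receptor INSR at 9.51, 9.54 and 9.69 with HER2 siRNA, against 7.91, 8.09 and 8.12 with control siRNA (1.54 ± 0.14). PIK3IP1, an inhibitor of PI3K, stood at 9.33, 9.73 and 9.58 with HER2 siRNA, against 7.32, 7.36 and 7.34 with control siRNA (2.20 ± 0.10). The arrays of none of these 3 genes overlapped between the siRNAs. TSC1, a brake on mTOR complex 1, rose by 0.76 ± 0.11 and RICTOR, a subunit of mTOR complex 2, by 0.79 ± 0.11, while the regulatory subunit PIK3R3 fell by 1.18 ± 0.09. PIK3IP1 differed by 1.07 and RICTOR by 0.49 when probe sets were averaged.

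All 26 genes of the FOXO list were tested, and 20 rose and 1 fell, with a median of 0.99. This is the list with the largest number of rises, and 12 of its members rose by at least 2-fold. Apart from DEPP1, FBXO32, IRS2, INSR and PIK3IP1, the list holds KLHL24, a ubiquitin ligase adaptor, at 10.88, 10.59 and 10.89 with HER2 siRNA, against 8.55, 8.47 and 8.83 with control siRNA (2.17 ± 0.16). CITED2, a coregulator of CBP and p300, was at 10.38, 10.21 and 10.42 with HER2 siRNA, against 8.22, 8.09 and 8.30 with control siRNA (2.13 ± 0.14). PDK4, a kinase that shuts off pyruvate dehydrogenase, reached 5.74, 6.24 and 6.52 with HER2 siRNA, against 4.45, 4.79 and 4.21 with control siRNA (1.68 ± 0.20, adjusted p = 6.67e-07). The arrays of these 3 genes did not overlap. GABARAPL1, a protein of autophagosomes, rose by 1.27 ± 0.11 and TXNIP, an inhibitor of thioredoxin, by 1.10 ± 0.11. KLHL24 differed by 1.20 when probe sets were averaged. With the GAPDH measure as a covariate 18 rose and 1 fell.

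Of 16 MAPK feedback and ETS genes none rose and 8 fell, with a median of -0.32. The other 8, among them DUSP5, SPRY1, SPRY2 and SPRED3, did not pass, so the share called is near the 42.0% over all genes, of which 20.5% were lower. The phosphatase DUSP4, which acts on MAP kinases, was at 10.33, 10.10 and 10.23 with HER2 siRNA, against 11.81, 11.77 and 11.62 with control siRNA (-1.51 ± 0.10, adjusted p = 3.16e-10). DUSP6, a phosphatase for ERK, stood at 8.16, 7.93 and 7.86 with HER2 siRNA, against 9.28, 9.31 and 9.28 with control siRNA (-1.30 ± 0.14). The groups stood apart in both. The RAS pathway inhibitors SPRED1 (-1.56 ± 0.20), SPRED2 (-0.57 ± 0.10) and SPRY4 (-0.81 ± 0.15) fell as well, and so did the ETS factor ETV5 (-1.11 ± 0.18). SPRED1, SPRED2 and ETV5 differed by -0.77, -0.20 and -0.48 when probe sets were averaged. Of 13 tested immediate early genes 3 rose and 1 fell. EGR3, which estrogen also induces, was at 5.42, 5.37 and 5.55 with HER2 siRNA, against 6.42, 7.39 and 7.25 with control siRNA (-1.57 ± 0.21, adjusted p = 2.77e-06). The rises were EGR1 (0.55 ± 0.16), FOSL2 (0.25 ± 0.07) and MYC (0.75 ± 0.24), and all 3 calls ended with the GAPDH measure as a covariate (adjusted p = 0.130, 0.139 and 0.369). They were also lost with other alternatives. That of EGR1 ended without control siRNA replicate 1 (0.0646) or HER2 siRNA replicate 3 (0.0508), that of FOSL2 without control siRNA replicate 2 (0.068) or with only the groups compared (0.0667), and that of MYC without control siRNA replicate 1 (0.0651), HER2 siRNA replicate 2 (0.0502) or HER2 siRNA replicate 3 (0.0656).

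Transcription factors of the E2F family and regulators of the entry into S phase were mostly lower. Of 12 tested E2F, DP and pocket protein genes 2 rose and 8 fell (median -0.49). E2F2, an activator, was at 7.25, 7.67 and 7.46 with HER2 siRNA, against 8.83, 8.66 and 8.57 with control siRNA (-1.23 ± 0.13, adjusted p = 7.87e-08), and E2F3, another activator, at 8.26, 8.08 and 8.18 with HER2 siRNA, against 9.19, 9.29 and 9.30 with control siRNA (-1.09 ± 0.10). E2F8, a repressor like E2F7, differed by -1.90 ± 0.25 and E2F5 by -0.64 ± 0.11. TFDP1, a DNA-binding partner of several E2F factors, differed by -0.54 ± 0.09. E2F1, named here after its values were seen because the series title names it, was at 7.71, 7.44 and 7.43 with HER2 siRNA, against 8.03, 8.02 and 7.84 with control siRNA (-0.44 ± 0.14, adjusted p = 0.0128). The HER2 siRNA arrays of E2F1 lay below the control arrays by a gap smaller than the spread within either group. E2F2 differed by -0.66 and E2F5 by -0.36 when probe sets were averaged.

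Of 11 tested G1 and S cyclins and kinases 1 rose and 9 fell (median -0.76). Cyclin E2, encoded by CCNE2, was at 9.25, 9.12 and 9.27 with HER2 siRNA, against 10.92, 11.07 and 11.02 with control siRNA (-1.79 ± 0.09, adjusted p = 1.48e-11). CCNA2, the S and G2 phase cyclin A2, was at 7.49, 7.57 and 7.79 with HER2 siRNA, against 9.32, 9.57 and 9.77 with control siRNA (-1.93 ± 0.18). The HER2 siRNA arrays were lower throughout. The kinase CDK2 differed by -0.97 ± 0.08, its subunit CKS1B by -1.49 ± 0.11, its activating phosphatase CDC25A by -1.21 ± 0.13 and cyclin E1, CCNE1, by -0.76 ± 0.09. Of the 5 tested CDK inhibitors CDKN1C, which encodes p57, stood out at 8.19, 8.12 and 8.45 with HER2 siRNA, against 5.92, 5.82 and 6.04 with control siRNA (2.33 ± 0.12, adjusted p = 1.48e-11). Of its 5 probe sets, the 4 tested all rose. CDKN1B, which encodes p27, rose by 0.35 ± 0.11, a call that ended without control siRNA replicate 1 (adjusted p = 0.0706), control siRNA replicate 2 (0.0570) or HER2 siRNA replicate 3 (0.0677). CDKN1A, which encodes p21, differed by -0.29 ± 0.32 (adjusted p = 0.526) with groups that overlapped, and CDKN2D fell by 0.56 ± 0.12. CDKN1C differed by 1.41, CDKN2D by -0.27 and CCNE1 by -0.38 when probe sets were averaged.

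Most tested genes of the machinery that copies DNA fell, from origin licensing to the replication fork. Of 15 origin licensing and firing genes none rose and 12 fell (median -1.33). DTL, a ubiquitin ligase receptor that removes the licensing factor CDT1 in S phase, was at 7.45, 7.78 and 7.69 with HER2 siRNA, against 9.81, 10.15 and 9.97 with control siRNA (-2.33 ± 0.12, adjusted p = 6.75e-12). CDC6, which loads the helicase onto origins, was at 6.37, 6.76 and 6.67 with HER2 siRNA, against 8.72, 9.02 and 8.81 with control siRNA (-2.25 ± 0.16). CDT1 itself differed by -1.72 ± 0.14, its inhibitor geminin, GMNN, by -1.33 ± 0.09, and the kinase CDC7 and its activator DBF4 by -1.62 ± 0.10 and -1.76 ± 0.15. All 11 genes of the replicative helicase fell, between -1.72 and -0.83 with a median of -1.32, and 9 of them by at least 2-fold. MCM6, whose promoter holds the E2F letters, was at 9.71, 9.96 and 9.96 with HER2 siRNA, against 11.28, 11.24 and 11.28 with control siRNA (-1.39 ± 0.08, adjusted p = 6.01e-11). GINS2, of the GINS part of the helicase, was at 7.58, 7.84 and 7.80 with HER2 siRNA, against 9.53, 9.42 and 9.44 with control siRNA (-1.72 ± 0.08). In both the groups lay over 1 log2 unit apart, and with probe sets averaged GINS2 differed by -0.68. CDC45, a part of the active helicase, differed by -1.67 ± 0.13 and the subunits MCM2, MCM3 and MCM5 by -1.35 ± 0.11, -1.22 ± 0.09 and -1.38 ± 0.09.

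Of 24 polymerases, clamp and Okazaki fragment factors none rose and 21 fell (median -0.77). POLE2, a subunit of the leading strand polymerase, was at 6.66, 7.03 and 7.26 with HER2 siRNA, against 8.79, 8.91 and 8.92 with control siRNA (-1.89 ± 0.15). PCNA, the sliding clamp, was at 11.27, 11.38 and 11.49 with HER2 siRNA, against 12.56, 12.65 and 12.65 with control siRNA (-1.24 ± 0.11, adjusted p = 7.03e-09). The clamp loaders RFC2, RFC3 and RFC4 differed by -1.17 ± 0.10, -1.36 ± 0.11 and -1.21 ± 0.08, and the flap nuclease FEN1 by -1.31 ± 0.12. Genes of DNA precursor supply fell less evenly. Of 19 tested genes of nucleotide synthesis 2 rose and 13 fell (median -0.40), and 7 fell by at least 2-fold. Among these were enzymes of deoxynucleotide and thymidylate supply. RRM2, the S phase subunit of ribonucleotide reductase, was at 10.42, 10.70 and 10.71 with HER2 siRNA, against 12.39, 12.55 and 12.52 with control siRNA (-1.88 ± 0.11, adjusted p = 1.15e-10). Thymidylate synthase, TYMS, differed by -1.86 ± 0.14, thymidine kinase, TK1, by -1.88 ± 0.14, the dUTP hydrolase DUT by -1.22 ± 0.10, CTP synthase, CTPS1, by -1.58 ± 0.11 and RRM1 by -1.02 ± 0.08. Of 6 serine and one-carbon enzymes 3 fell, PSAT1 (-1.37 ± 0.08), MTHFD1 (-0.57 ± 0.08) and MTHFD2 (-0.44 ± 0.08), with -0.33 for MTHFD1 when probe sets were averaged.

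Of 18 tested recombination, Fanconi and checkpoint genes none rose and 16 fell (median -1.35). With probe sets averaged 15 of 17 fell, with a median of -0.90 and a difference of -0.87 for TIMELESS. RAD51AP1, a protein of homologous recombination, was at 7.84, 8.03 and 8.22 with HER2 siRNA, against 10.04, 10.13 and 10.45 with control siRNA (-2.17 ± 0.14). BRIP1, a helicase that binds BRCA1, differed by -1.84 ± 0.16, BRCA1 by -1.67 ± 0.13, the helicase BLM by -1.61 ± 0.13 and the fork protection proteins TIMELESS and CLSPN by -1.46 ± 0.10 and -1.53 ± 0.11. All 42 mitotic genes were tested and fell, 41 of them by at least 2-fold, with differences between -2.38 and -0.75 and a median of -1.94. CDK1, the kinase that starts mitosis, was at 8.97, 9.14 and 9.23 with HER2 siRNA, against 10.99, 11.29 and 11.39 with control siRNA (-2.11 ± 0.14, adjusted p = 2.89e-10). SPC25, of the kinetochore, was at 6.24, 6.47 and 6.72 with HER2 siRNA, against 8.75, 8.78 and 9.0 with control siRNA (-2.36 ± 0.14). TOP2A, which untangles chromosomes, was at 8.28, 8.27 and 8.45 with HER2 siRNA, against 10.33, 10.70 and 10.72 with control siRNA (-2.26 ± 0.14). The HER2 siRNA arrays of these 3 genes lay well below all control arrays. The condensin subunit NCAPH differed by -1.94 ± 0.13 and the midzone protein PRC1 by -1.88 ± 0.13. With the GAPDH measure as a covariate 11 origin genes, 11 helicase genes, 21 polymerase and clamp genes, 15 recombination genes and 42 mitotic genes passed as lower.

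**Figure D2:**
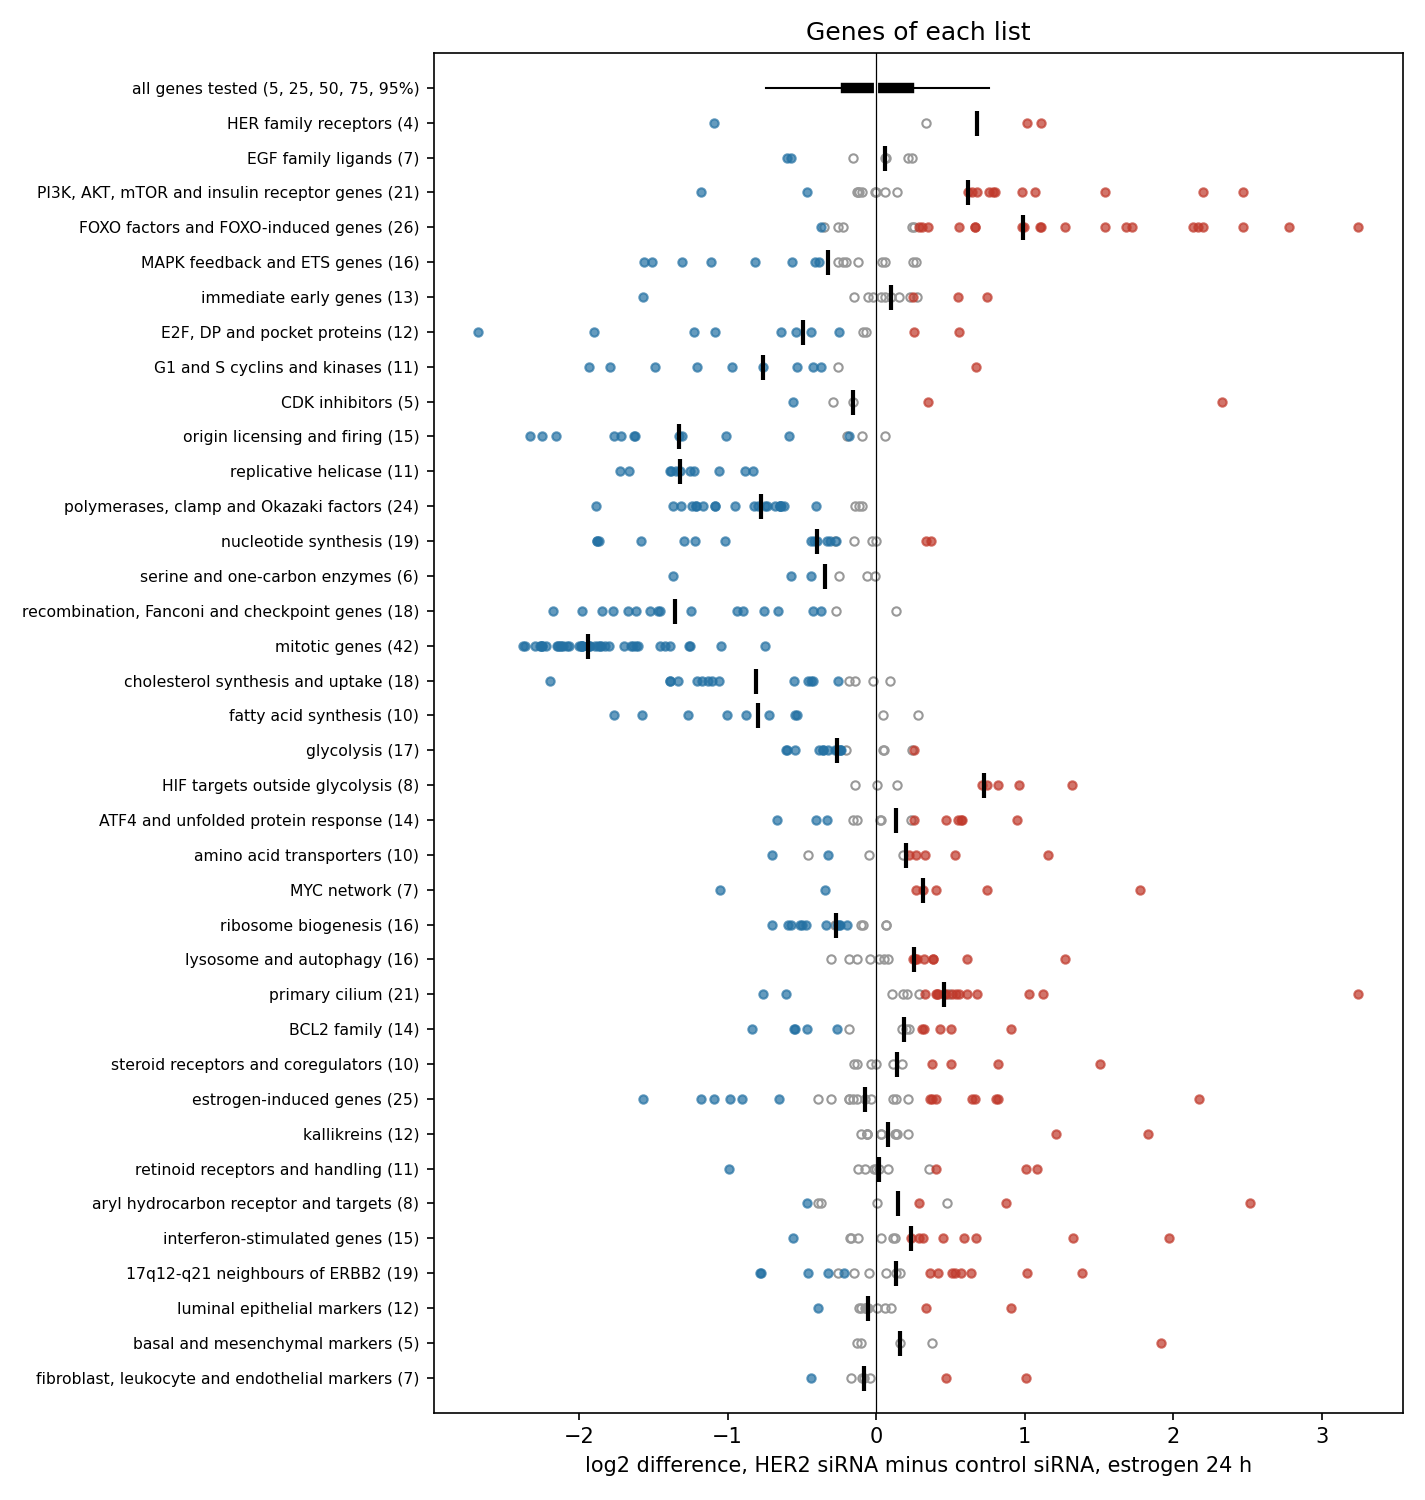
Log2 difference, HER2 siRNA minus control siRNA with estrogen at 24 h, of each tested gene of 37 lists (rows, with the number tested), with all 14335 genes on top as a thick bar from the 25th to the 75th percentile and a thin line from the 5th to the 95th. Red points rose, blue points fell, open points did not pass and black ticks are medians. The mitotic genes all lie below -0.7 while the FOXO list reaches 3.24.

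Of 18 tested genes of cholesterol synthesis and uptake none rose and 14 fell (median -0.81, and 15 fell with a median of -0.53 with probe sets averaged). INSIG1, the sterol-regulated retention factor of SREBP, was at 8.79, 8.55 and 8.59 with HER2 siRNA, against 10.71, 10.84 and 10.96 with control siRNA (-2.19 ± 0.16, adjusted p = 9.44e-10). HMGCS1, an early enzyme of the pathway, was at 9.13, 8.85 and 9.07 with HER2 siRNA, against 10.31, 10.31 and 10.44 with control siRNA (-1.34 ± 0.11). In both genes no arrays overlapped. DHCR7, which makes cholesterol in the last step of a branch, differed by -1.39 ± 0.12, EBP by -1.13 ± 0.10 and squalene epoxidase, SQLE, by -1.11 ± 0.08. The isomerase IDI1 differed by -1.39 ± 0.09 on its brightest probe set, and 1 of its 4 probe sets rose (-0.49 averaged). Of 10 tested fatty acid genes none rose and 8 fell (median -0.80). The desaturase SCD was at 10.75, 10.71 and 10.65 with HER2 siRNA, against 12.24, 12.33 and 12.28 with control siRNA (-1.58 ± 0.08, adjusted p = 6.75e-12), and the elongase ELOVL6 at 7.51, 7.37 and 7.54 with HER2 siRNA, against 9.04, 9.22 and 9.46 with control siRNA (-1.76 ± 0.13). ACLY, which makes cytosolic acetyl-CoA, differed by -0.88 ± 0.07, the desaturase FADS2 by -1.0 ± 0.08, malic enzyme, ME1, by -1.27 ± 0.17 and the carboxylase ACACA by -0.53 ± 0.07. The sterol regulatory element letters TCACNCCAC were in 1 of 17 cholesterol gene promoters, that of SREBF2, in none of 9 fatty acid gene promoters, in 1 (0.311%) of the promoters of genes that fell by at least 2-fold and in 125 (1.09%) of all promoters.

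Of 17 glycolysis genes 1 rose and 12 fell, none of them by 2-fold (median -0.26). GPI (-0.61 ± 0.09), LDHA (-0.60 ± 0.11) and PKM (-0.54 ± 0.10), enzymes near the start and the end of glycolysis, were among them, with smaller falls for PGAM1 (-0.38 ± 0.08), ALDOA (-0.36 ± 0.07) and PGK1 (-0.36 ± 0.07). PKM differed by -0.25 and PGK1 by -0.23 when probe sets were averaged. Of 8 tested targets of hypoxia-inducible factors outside glycolysis 5 rose and none fell (median 0.73). NDRG1, a stress-induced protein, was at 10.30, 10.66 and 10.43 with HER2 siRNA, against 9.17, 9.10 and 9.16 with control siRNA (1.32 ± 0.10, adjusted p = 1.30e-09). The histone demethylase KDM3A rose by 0.97 ± 0.08, the peptide hormone ADM by 0.82 ± 0.19, the mitophagy receptor BNIP3 by 0.75 ± 0.07 and ANKRD37 by 0.71 ± 0.09. KDM3A differed by 0.58 with probe sets averaged.

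Lists of stress, growth and degradation genes held members that moved in both directions or by little. Of 14 genes of ATF4 and the unfolded protein response 6 rose and 3 fell (median 0.13, and 3 rose and 2 fell with the GAPDH covariate). The chaperone partner DNAJB9 rose by 0.95 ± 0.18, the mTOR inhibitor DDIT4 by 0.58 ± 0.11 and HERPUD1, of protein degradation at the endoplasmic reticulum, by 0.47 ± 0.08, while TRIB3 fell by 0.33 ± 0.09. Of 10 amino acid transporters 5 rose and 2 fell (median 0.20, and 3 rose and 2 fell with the covariate or with probe sets averaged). SLC6A14 rose by 1.16 ± 0.23 and SLC7A2 by 0.53 ± 0.08, and SLC1A4 fell by 0.70 ± 0.10. Of 7 tested genes of MYC, its partners and antagonists 5 rose and 2 fell (3 and 1 with the covariate, 3 and 2 with probe sets averaged). MXI1, which competes with MYC for MAX, was at 10.25, 10.58 and 10.66 with HER2 siRNA, against 8.55, 8.86 and 8.73 with control siRNA (1.78 ± 0.14, adjusted p = 3.07e-09). MXD1, of the same kind, was at 7.23, 7.16 and 7.14 with HER2 siRNA, against 8.15, 8.29 and 8.25 with control siRNA (-1.05 ± 0.14). The one stood higher on every array and the other lower. Of 16 tested ribosome biogenesis genes none rose and 11 fell (median -0.27), with RRS1 (-0.70 ± 0.09), NOP16 (-0.59 ± 0.09) and POLR1A, a subunit of RNA polymerase I (-0.58 ± 0.08), among them. Without control siRNA replicate 3, or without HER2 siRNA replicate 2, 7 fell. HERPUD1 differed by 0.30, SLC7A2 by 0.16, MXD1 by -0.66 and NOP16 by -0.30 when probe sets were averaged.

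Of 16 tested lysosome and autophagy genes 9 rose and none fell (median 0.25), led by GABARAPL1 and the lysosomal enzymes HEXA (0.61 ± 0.09) and CTSB (0.38 ± 0.06). That count rested on small differences. It was 3 higher and 2 lower with the GAPDH covariate, 4 higher without control siRNA replicate 2 and 5 higher with 1 lower without HER2 siRNA replicate 1. Of 21 tested genes of the primary cilium, an organelle of cells outside the cycle, 14 rose and 2 fell (median 0.46, and 12 and 2 with the covariate). Besides DYNLRB2, BBS1, of the complex that carries membrane proteins into cilia, was at 9.26, 9.40 and 9.48 with HER2 siRNA, against 8.17, 8.30 and 8.30 with control siRNA (1.12 ± 0.09, adjusted p = 2.53e-09). Its other 2 tested probe sets did not pass (0.01 ± 0.10, adjusted p = 0.947, and -0.16 ± 0.13, adjusted p = 0.381), and the mean of its probe sets differed by 0.32. BBS9, of the same complex, rose by 1.03 ± 0.14 and the transport protein IFT20 by 0.47 ± 0.07. IFT122 fell by 0.76 ± 0.11. IFT43 rose by 0.51 ± 0.07 on its brightest probe set, while 1 of 3 fell. BBS9 differed by 0.67, IFT122 by -0.35, IFT43 by 0.27 and HEXA by 0.30 when probe sets were averaged. In the BCL2 family 5 of 14 rose and 5 fell (3 and 3 with probe sets averaged). BMF, a proapoptotic BH3 protein, was at 7.75, 7.88 and 7.67 with HER2 siRNA, against 6.83, 6.88 and 6.86 with control siRNA (0.91 ± 0.16). The survival protein BCL2L1 rose by 0.43 ± 0.09 (0.21 averaged). The proapoptotic BID fell by 0.55 ± 0.08 and PMAIP1, which encodes NOXA, by 0.84 ± 0.16. MCL1, another survival protein, rose by 0.51 ± 0.07 on 1 of 5 tested probe sets, and that call ended when its probe sets were averaged (adjusted p = 0.285).

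Among genes of hormone action, steroid receptors and coregulators gave a share of calls near the background, and estrogen-induced genes gave calls in both directions. Of 10 tested steroid receptors and coregulators 4 rose (40%) and none fell, against 42.0% called and 21.5% higher over all genes. Without control siRNA replicate 1, or without HER2 siRNA replicate 3, 2 rose. The glucocorticoid receptor NR3C1 was at 9.58, 9.71 and 9.83 with HER2 siRNA, against 8.08, 8.20 and 8.33 with control siRNA (1.5 ± 0.11, adjusted p = 5.81e-10), and all 5 of its probe sets rose. The coactivator NCOA2 rose by 0.51 ± 0.10. The progesterone receptor PGR, induced by estrogen, rose by 0.82 ± 0.26, a call that ended without control siRNA replicate 1 (adjusted p = 0.0588) or HER2 siRNA replicate 3 (0.0764). NCOA3, which encodes the coactivator SRC-3 of the series title, was not analysed here. Of 25 tested estrogen-induced genes 8 rose and 6 fell, a share of calls not far above the background, with a median of -0.08. Without control siRNA replicate 1, 4 rose and 5 fell, without control siRNA replicate 2, 5 rose and 6 fell, and without HER2 siRNA replicate 3, 3 rose and 6 fell. With the GAPDH covariate 5 rose and 6 fell. The secreted glycoprotein STC2 was at 9.57, 10.19 and 10.66 with HER2 siRNA, against 7.93, 8.07 and 7.88 with control siRNA (2.18 ± 0.21, adjusted p = 2.80e-08). The receptor tyrosine kinase RET was at 7.05, 7.14 and 7.02 with HER2 siRNA, against 7.77, 8.47 and 8.49 with control siRNA (-1.18 ± 0.19). RERG, a growth inhibitor related to RAS, fell by 1.09 ± 0.19, PKIB, an inhibitor of protein kinase A, by 0.90 ± 0.12, and SUSD3 rose by 0.64 ± 0.14. NCOA2 differed by 0.20 and SUSD3 by 0.27 when probe sets were averaged.

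Of 12 tested kallikreins, secreted serine proteases encoded in 1 cluster, 2 rose and 10 did not pass. KLK10 was at 6.96, 7.46 and 7.84 with HER2 siRNA, against 5.55, 5.61 and 5.61 with control siRNA (1.83 ± 0.16, adjusted p = 1.05e-08), and KLK11 at 8.24, 8.99 and 9.07 with HER2 siRNA, against 7.08, 7.69 and 7.91 with control siRNA (1.21 ± 0.18). Of 11 tested retinoid genes 3 rose and 1 fell. The receptor RXRA rose by 1.01 ± 0.09 and ALDH1A3, which makes retinoic acid, by 1.08 ± 0.29, while the carrier CRABP2 fell by 0.99 ± 0.11. Of 8 aryl hydrocarbon receptor genes 3 rose and 1 fell. CYP1A1, a cytochrome induced by that receptor, was at 11.17, 10.40 and 10.21 with HER2 siRNA, against 8.87, 8.06 and 7.30 with control siRNA (2.52 ± 0.44, adjusted p = 7.75e-05). AHR itself did not pass (0.01 ± 0.21, adjusted p = 0.987). Without HER2 siRNA replicate 1 only 1 gene of that list rose and none fell, and 2 rose with probe sets averaged or with the GAPDH covariate. Of 15 tested interferon-stimulated genes 8 rose and 1 fell (median 0.23, and 5 and 1 with the GAPDH covariate). The ubiquitin ligases HERC5 and HERC6 rose by 1.97 ± 0.15 and 1.33 ± 0.14, and OAS3 fell by 0.56 ± 0.09. HERC5 reached the filter only through the arrays with HER2 siRNA and estrogen at 24 h, so its rise is no independent support. The other 6 tested, among them ISG15 and MX1, did not pass, and 7 more of the list, among them IFIT1, lay below the filter. Both arms had received siRNA, of sequences not given here, and its part in the changes of this list was not tested. KLK10 differed by 0.92, RXRA by 0.54, ALDH1A3 by 0.67, HERC6 by 0.72 and OAS3 by -0.37 when probe sets were averaged.

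Genes next to ERBB2 on 17q12 to q21, which can be amplified with it, moved in both directions. Of 19 tested neighbours 8 rose and 5 fell (median 0.13). GSDMB, a gasdermin, rose by 1.38 ± 0.21, the ubiquitin ligase adaptor FBXL20 by 1.02 ± 0.14 and ORMDL3, a regulator of sphingolipid synthesis, by 0.64 ± 0.10. PNMT fell by 0.78 ± 0.15. CDK12, a kinase of transcription elongation, fell on its brightest probe set (-0.78 ± 0.09), while 1 of 8 rose (-0.23 averaged). Of 12 tested luminal markers 2 rose and 1 fell, with GATA3, a transcription factor of luminal cells, at 12.56, 12.46 and 12.58 with HER2 siRNA, against 11.75, 11.44 and 11.68 with control siRNA (0.91 ± 0.09). Among basal and mesenchymal markers TWIST1 was at 11.20, 11.04 and 11.10 with HER2 siRNA, against 9.24, 9.01 and 9.34 with control siRNA (1.92 ± 0.10, adjusted p = 1.76e-11), while the other 4 tested did not pass. Among 7 tested markers of fibroblasts, leukocytes and endothelial cells 2 rose, LYZ (1.01 ± 0.33) and COL1A1 (0.47 ± 0.14), and VWF fell by 0.44 ± 0.13, and none rose without HER2 siRNA replicate 3. The call of VWF ended with the GAPDH covariate (adjusted p = 0.214) or without control siRNA replicate 2 (0.0695), control siRNA replicate 3 (0.058) or HER2 siRNA replicate 2 (0.0504). COL1A1 and VWF differed by 0.30 and -0.26 with probe sets averaged.

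The effect was then set beside the siRNA effect measured on other arrays. Under vehicle 5942 genes passed after 24 h (41.5%). Under estrogen 4886 passed after 4 h (34.1%). Of the 3080 genes higher with estrogen at 24 h, 2339 were also higher with vehicle (75.9% of these and 82.9% of the vehicle rises) and 2 were lower. Of the 2939 lower genes, 2490 were also lower with vehicle (84.7% and 79.8%) and none was higher. At 4 h with estrogen, 2058 of the higher genes (66.8% and 85.5%) and 2131 of the lower genes (72.5% and 86.0%) were called the same way. Across the 14335 genes, which are not independent replicates, the Pearson r with the vehicle effect was 0.925 and with the 4 h effect 0.908. All 42 mitotic genes fell in each of these comparisons, with medians of -1.43 (estrogen, 4 h), -1.94 (estrogen, 24 h) and -2.04 (vehicle, 24 h). All 11 helicase genes did too, with medians of -1.21, -1.32 and -1.05 in the same order. In the FOXO list 16, 20 and 20 genes rose in that order, with medians of 0.60, 0.99 and 0.90. On the vehicle arrays the GAPDH 3′ to 5′ difference was 0.423, 0.514 and 0.445 with HER2 siRNA, against 0.420, 0.399 and 0.267 with control siRNA. With estrogen at 4 h it was 0.426, 0.529 and 0.398, against 0.250, 0.370 and 0.258. The ACTB measure overlapped between the siRNAs in both. The part of RNA integrity in the shared calls was not tested.

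The siRNA effect with estrogen differed from that with vehicle at 24 h for 9 genes (0.0628% of those tested), and 866 genes had an unadjusted p under 0.05. With the replicate number as a block the count was 34, the 9 genes among them. This test and that between times share the 6 arrays of the comparison. STC2 had the largest difference of effects. On the vehicle arrays its log2 level was 6.90, 6.98 and 6.97 with HER2 siRNA, against 7.68, 7.53 and 7.42 with control siRNA. HER2 siRNA thus went with a higher level under estrogen (2.18) and a lower one under vehicle (-0.59), and the difference of effects was 2.77 ± 0.29 (adjusted p = 7.66e-05). HERC5 was at 7.04, 6.58 and 6.58 with HER2 siRNA and estrogen, against 4.45, 4.92 and 4.91 with control siRNA and estrogen, and at 4.58, 4.77 and 4.66 with HER2 siRNA and vehicle, against 4.39, 4.32 and 4.41 with control siRNA and vehicle. Only the group with both HER2 siRNA and estrogen stood above 5 at 24 h, and the difference of effects was 1.67 ± 0.21, adjusted p = 5.43e-04. HERC5 reached the filter through that group, since 1 other array of the series was at 5 or more, so its being tested required a high level there. The long noncoding RNA DSCAM-AS1, an estrogen receptor target in breast cancer cells, was at 10.74, 11.11 and 11.36 with HER2 siRNA and estrogen, against 8.76, 8.70 and 8.53 with control siRNA and estrogen, and at 8.62, 8.64 and 8.20 with HER2 siRNA and vehicle, against 7.87, 7.41 and 7.54 with control siRNA and vehicle. It was higher with HER2 siRNA under both, and by more under estrogen (difference of effects 1.53 ± 0.21, adjusted p = 0.00179).

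KLK10 (1.39 ± 0.23, adjusted p = 0.0132), the cell adhesion protein PCDH19 (1.18 ± 0.21, adjusted p = 0.0265), the homeobox factor IRX2 (0.86 ± 0.15, adjusted p = 0.0236) and the transcriptional repressor HBP1 (0.53 ± 0.10, adjusted p = 0.0414) also had a higher siRNA difference under estrogen. HBP1 rose under both treatments, with 1.31 under estrogen and 0.79 under vehicle. In the other direction CELF2, an RNA-binding protein, was at 5.81, 5.99 and 5.92 with HER2 siRNA and estrogen, against 5.58, 5.95 and 5.59 with control siRNA and estrogen, and at 6.91, 7.24 and 7.39 with HER2 siRNA and vehicle, against 5.71, 5.68 and 5.76 with control siRNA and vehicle. Its siRNA difference was present with vehicle and did not pass with estrogen (adjusted p = 0.215, difference of effects -1.26 ± 0.17, adjusted p = 0.00179). CDCA7L, which binds MYC, rose under both, by 0.62 with estrogen and 1.42 with vehicle (difference of effects -0.80 ± 0.12, adjusted p = 0.00327). Over the alternatives run, STC2, HERC5 and CELF2 kept their calls in all of theirs (24, 23 and 22), KLK10 in 19 of 23, PCDH19 in 15 of 23, IRX2 in 14 of 24 and HBP1 in 9 of 24. Totals under 24 leave out alternatives in which the gene did not reach the filter. CELF2 therefore had no value with probe sets averaged, and its call was not checked there. With probe sets averaged KLK10 (0.69, adjusted p = 0.196), IRX2 (0.56, adjusted p = 0.0877) and HBP1 (0.41, adjusted p = 0.431) did not pass. With only the arrays of the groups compared, the calls of DSCAM-AS1 (adjusted p = 0.0556) and CDCA7L (0.0786) ended. The number of genes was 5 without HER2 siRNA estrogen 24 h replicate 2 and 17 without replicate 1 of that group.

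**Figure D3:**
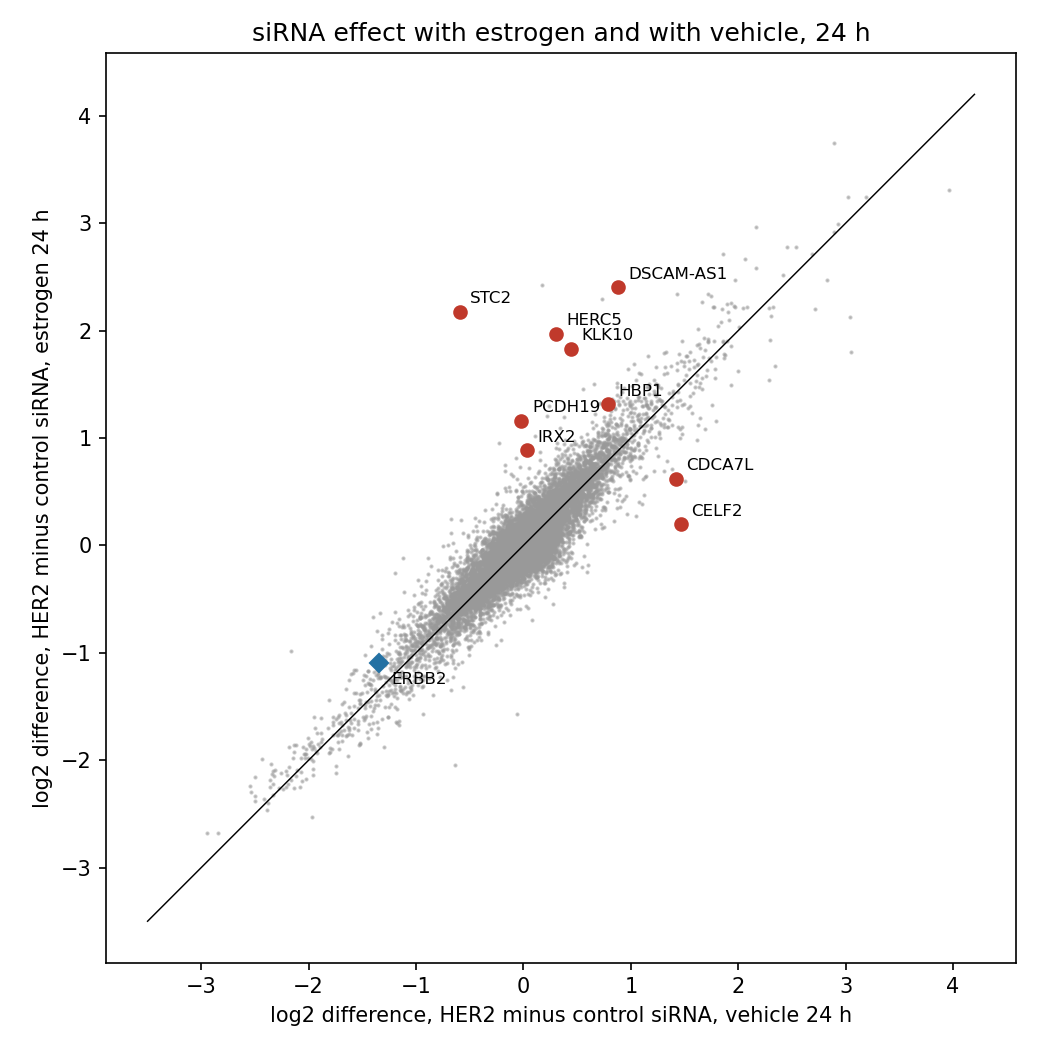
Log2 difference of each of 14335 genes, HER2 siRNA minus control siRNA at 24 h, with vehicle (horizontal axis) and with estrogen (vertical axis), with the line of equal differences. Red points are the 9 genes whose difference of effects passed the test and the blue diamond is ERBB2. STC2 lies at -0.59 with vehicle and 2.18 with estrogen.

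**Figure D4:**
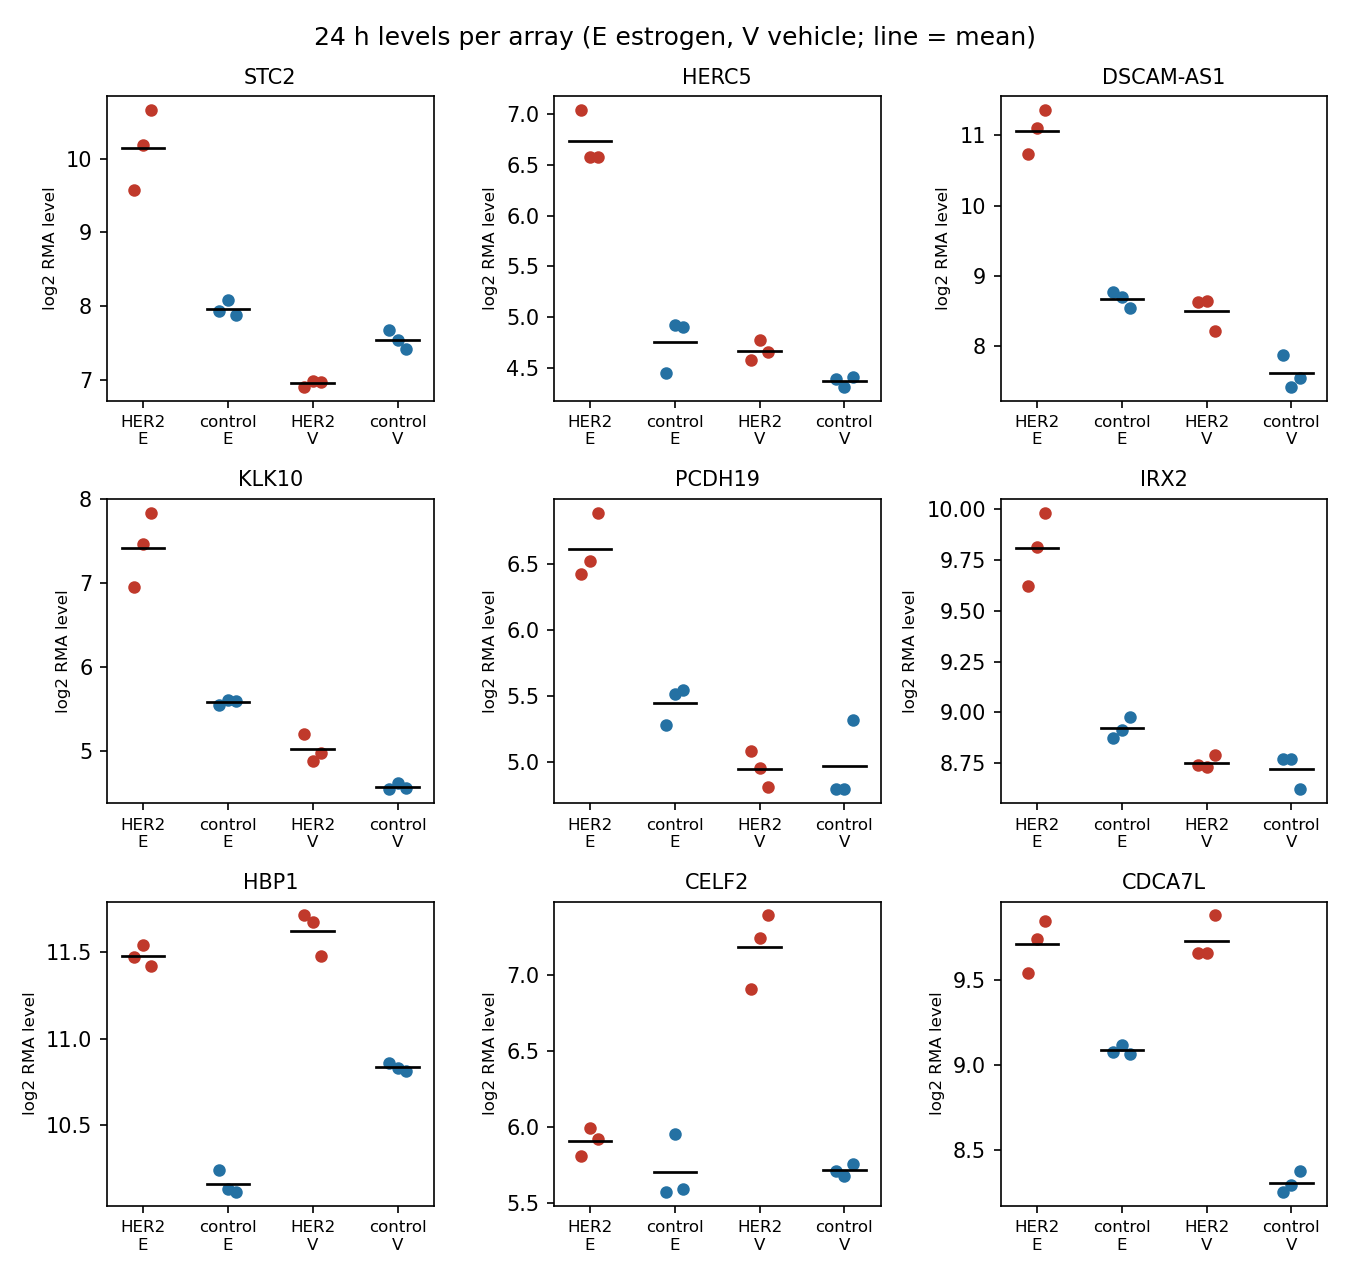
Log2 RMA level on each array at 24 h of the 9 genes whose siRNA effect differed between estrogen and vehicle, with HER2 siRNA (red) left of control siRNA (blue) for estrogen (E) and then vehicle (V). Points are arrays and lines are means of 3. STC2, HERC5, DSCAM-AS1, KLK10, PCDH19 and IRX2 are highest in the group with HER2 siRNA and estrogen, and CELF2 in the group with HER2 siRNA and vehicle.

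Between times, the siRNA effect under estrogen was higher at 24 h than at 4 h for 27 genes and lower for 5 (32 in all, 0.223% of those tested, with 1155 at an unadjusted p under 0.05). With the replicate number as a block the count was 106, the 32 genes among them. HERC5 and SPOCK1 reached the filter through the HER2 siRNA arrays at 24 h. ALPP, placental alkaline phosphatase, was at 4.66, 4.46 and 4.74 with HER2 siRNA at 4 h, against 4.58, 4.49 and 4.54 with control siRNA, and at 6.02, 6.66 and 6.41 with HER2 siRNA at 24 h, against 4.2, 4.61 and 4.56 with control siRNA. The siRNA groups overlapped at 4 h and stood apart at 24 h, and the difference of effects was 1.82 ± 0.21, adjusted p = 3.29e-04. The chemokine receptor CCR2 (1.55 ± 0.23, adjusted p = 0.00319), the retinoic acid-induced RAI2 (1.39 ± 0.24, adjusted p = 0.00688), PDK4 (1.44 ± 0.28, adjusted p = 0.0292) and the noncoding CRIM1-DT (1.37 ± 0.26, adjusted p = 0.0255) followed, along with STC2 (1.70 ± 0.29, adjusted p = 0.0075), DSCAM-AS1 (1.59 ± 0.21, adjusted p = 0.00197), KLK10 (1.53 ± 0.23, adjusted p = 0.00343) and HERC5 (1.20 ± 0.21, adjusted p = 0.0075), which also differed from vehicle. NR3C1 rose by 0.63 at 4 h and 1.5 at 24 h (difference of effects 0.87 ± 0.15, adjusted p = 0.0075).

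Of the 5 genes with a lower effect at 24 h, PMAIP1 was at 9.02, 9.37 and 9.45 with HER2 siRNA at 4 h, against 8.79, 9.13 and 9.15 with control siRNA, and fell below control at 24 h (difference of effects -1.09 ± 0.23, adjusted p = 0.0385). The metallothionein MT1X (-0.75 ± 0.15, adjusted p = 0.0327) and the membrane protein PROM2 (-0.69 ± 0.14, adjusted p = 0.0349) likewise fell at 24 h with differences near 0 at 4 h. Myoglobin, MB, had a siRNA difference of 0.56 at 4 h and -0.09 at 24 h, where it did not pass (-0.65 ± 0.10, adjusted p = 0.0046). SCD fell at both times, by 0.93 at 4 h and 1.58 at 24 h (-0.65 ± 0.11, adjusted p = 0.00705). No list had more than 1 member among the 32. The number of genes was 21 without HER2 siRNA estrogen 4 h replicate 2. It was 42 without replicate 3 of that group, whose source name gives 24 h while its other labels give 4 h, and also 42 without HER2 siRNA estrogen 24 h replicate 1. Over the alternatives, ALPP, CCR2, DSCAM-AS1, KLK10, RAI2 and MB kept their calls in all of theirs, while PDK4 kept its call in 12 of 22, PMAIP1 in 12 of 24, CRIM1-DT in 12 of 23, PROM2 in 14 of 24, MT1X in 15 of 24 and SCD in 22 of 24. Alternatives in which a gene did not reach the filter are not counted, and CCR2 and PDK4 had no value with probe sets averaged. STC2 (adjusted p = 0.101), HERC5 (0.0950) and NR3C1 (0.0581) each lost the call with only the groups compared. With probe sets averaged PROM2 (-0.19, adjusted p = 0.700), MT1X (-0.54, adjusted p = 0.132) and SCD (-0.51, adjusted p = 0.0859) did not pass, and KLK10 passed at 0.82.

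**Figure D5:**
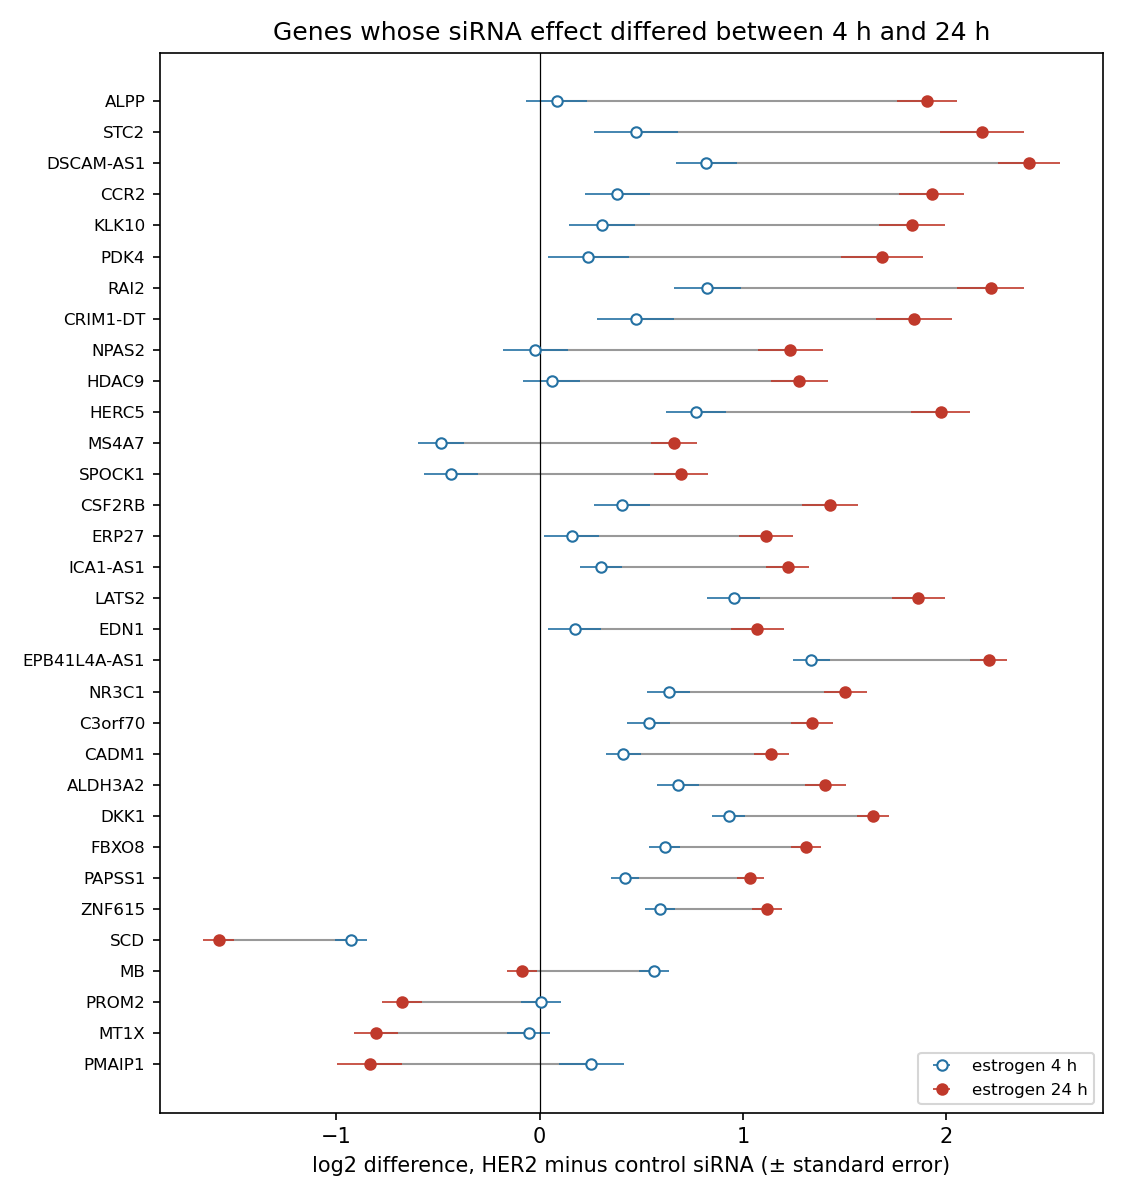
Log2 difference, HER2 siRNA minus control siRNA under estrogen, at 4 h (open blue circles) and at 24 h (filled red circles) for the 32 genes whose effect differed between the times, with bars of 1 standard error. Genes are ordered by the difference between times, from ALPP (1.82) at the top to PMAIP1 (-1.09) at the bottom.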

How the data were processed

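RNA of BT-474 cells was hybridised to 24 Affymetrix 3′ arrays in 8 groups of 3. The deposited values are log2 levels per probe set, made by the authors with RMA, per the submitters' processing notes. The RMA version is not given in the sources used here. RMA quantile-normalizes probes, so differences are relative to the other genes of an array. Of 54675 probe sets, 41091 had 1 gene symbol in the platform annotation, 1801 several and 11721 none. Each of 19775 genes was represented by the probe set with the highest mean over the 24 arrays. The 14335 genes at a log2 level of at least 5 on at least 3 arrays were tested. Group means were fitted over all 24 arrays with limma 3.58.1 (R 4.3.3) and empirical Bayes moderation. P-values were adjusted by Benjamini-Hochberg over all genes tested, with a threshold of 0.05, and the pipeline was tested on simulated data. The comparison, the 37 lists (594 genes, 508 of them tested) and the tests were chosen with earlier results of these data known. Genes named are the 15 largest changes each way with arrays that do not overlap, up to 6 passing members of each list by adjusted p, all members of lists of up to 8, up to 8 genes each way and list members passing a difference of effects, and up to 2 members per motif. Not every gene under this rule is printed, and TXNIP stands under the motif part. Promoters were read with Python 3.11.15 from RefSeq sequences. Alternatives covered filters, probe sets, normalization, weights, priors, the GAPDH measure, label groups and single arrays.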

Additional observations from a re-analysis of the deposited data

Results flagged for a closer look

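The siRNA effect differed between estrogen and vehicle at 24 h for 9 genes by a test of the difference itself. The differences of effects on the log2 scale, estrogen minus vehicle, were 2.7712 for STC2, 1.6738 for HERC5, 1.5257 for DSCAM-AS1, 1.3862 for KLK10, 1.1803 for PCDH19, 0.8552 for IRX2 and 0.5269 for HBP1. They were -1.2634 for CELF2 and -0.7963 for CDCA7L. Under estrogen the effect differed between the times for 32 genes by the same kind of test. The differences, 24 h minus 4 h, were 1.8235 for ALPP, 1.7042 for STC2, 1.587 for DSCAM-AS1, 1.5465 for CCR2, 1.526 for KLK10, 1.4442 for PDK4, 1.3928 for RAI2, 1.3691 for CRIM1-DT and 0.8703 for NR3C1. They were -1.0916 for PMAIP1, -0.7512 for MT1X, -0.6861 for PROM2, -0.6503 for MB and -0.6498 for SCD.

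Probe sets without a gene name stood outside the comparisons by gene. Of 4937 such probe sets tested in the comparison of HER2 siRNA with control siRNA under estrogen at 24 h, 927 passed (18.8%), with 596 higher and 331 lower. By at least 2-fold 181 rose and 44 fell. The largest rise among them was 3.03 ± 0.18, with means of 8.80 with HER2 siRNA and 5.77 with control siRNA.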

How the results depend on the processing

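Across the alternatives run, the number of genes changed by HER2 siRNA under estrogen at 24 h lay between 4667 (GAPDH measure as a covariate) and 6833 (every probe set tested), and between 5263 and 5551 with 1 array left out. The count over the lists lay between 306 and 369, and ERBB2 between -1.24 and -0.96. Of 208 named genes, 171 kept their direction and their side of the threshold in every alternative. The differences of effects were less stable. The count for estrogen against vehicle was 34 with the replicate block, 15 with the arrays numbered apart as a term, 4 with only the groups compared, 22 with array weights, 16 with a trend and robust prior and 5 to 17 with 1 array left out. The count between times was 106 with the replicate block, 20 with only the groups compared, 90 with array weights, 50 with a trend and robust prior and 21 to 42 with 1 array left out. The arrays numbered apart carry lower running numbers than the rest. They are replicate 1 of both control siRNA groups at 24 h and of HER2 siRNA with estrogen at 4 h. The array of control siRNA with estrogen is 1 of the comparison. Fewer arrays estimate the spread where only the groups compared are fitted, and otherwise the cause was not tested. The deviations of same-numbered arrays correlated at 0.176, 0.0794 and 0.352 in the comparison, so that replicate 2 missed the level of 0.1 asked for every pair and correlated more with another number (0.109). They correlated between 0.336 and 0.487 under vehicle and between 0.273 and 0.386 under estrogen at 4 h, where every pair passed that level. The differences of effects use pairs of both kinds, so both counts are given, with and without the block. With the replicate number as a block 6553 genes passed in the comparison. CYP1B1, which did not pass at -0.37, was at 0.0676 with the GAPDH covariate, and AHR, which did not pass at 0.01, lay between -0.1579 and 0.0927 with 1 array left out. The integrity difference between the siRNAs was 0.252 by ACTB, 0.1079 by the middle probe set of GAPDH and 0.1739 to 0.1917 with 1 array left out. In promoter windows of 150 bases the CHR letters were in 22.4% and CCAAT in 42.2% of the promoters of genes that fell by at least 2-fold, CCAAT in 55.6% of mitotic promoters and the FOXO letters in 4.35% of the FOXO list, against 3.93%, 23.1% and 1.11% of all promoters for these letters. Signal over background limits what can be said of genes near a log2 level of 5.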
